A study of Homo sapiens with 8 samples.

Results

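Of the 19648 DNase hypersensitive sites (DHS) listed for the gefitinib-sensitive lung cancer line PC9, 2626 were distal, lay in H3K4me2 chromatin and had no counterpart in the gefitinib-selected line PC9R. They were chosen by 3 criteria: no overlap of even 1 bp with any of the 59600 DHS peaks of PC9R, an overlap of at least 1 bp with an H3K4me2 peak of PC9, and more than 1 kb between the peak and every transcription start site (TSS) of a protein-coding transcript. Without a PC9R overlap there were 11153 PC9 peaks. Of these, 4978 lay in PC9 H3K4me2, and leaving out the 2352 within 1 kb of a TSS gave the 2626, called PC9-only enhancer-like sites here. PC9R cells had been selected from PC9 by gefitinib treatment over 1 to 2 weeks, and PC9 had no gefitinib exposure in the labels. PC9 is an established lung adenocarcinoma line with an activating EGFR mutation, and gefitinib inhibits the EGFR kinase. Both lines were used at passages 8 to 12. Each line had 1 DHS list, 1 H3K4me2 list and 2 RNA libraries, so chromatin differences between the lines have no replicate check and no test. A change made by the drug and a difference between the selected cells and their parents cannot be told apart in these samples.

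DNase cuts chromatin where nucleosomes are displaced by bound transcription factors, so a hypersensitive site marks a regulatory element in use. H3K4me2, dimethylation of lysine 4 of histone H3, is laid down by the KMT2 and SETD1 methyltransferases at promoters and enhancers, and it can stay on an enhancer that is no longer open. AP-1, a dimer of JUN and FOS family proteins, is activated by the MAPK cascade downstream of EGFR, and with TEAD factors it occupies many enhancers of epithelial cancer cells.

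The sequences of 7 sites are shown because they carry the features described in the results: the 2 highest-scored of all sites (TRIP13 and PHLDB2), the highest-scored one at EGFR, the ones nearest to LRATD1 and NR2F1, which are among the genes with the largest RNA differences between the lines, and 2 without H3K4me2 in PC9R (OSR1 and HMGA2). Each is the 300 bp of the hg19 (GRCh37) plus strand centred on the peak midpoint, and is named by the gene with the nearest TSS. Capitals mark matches on either strand to the AP-1 motif TGANTCA or the TEAD motif GGAATG.
TRIP13 site, chr5:912543-912842: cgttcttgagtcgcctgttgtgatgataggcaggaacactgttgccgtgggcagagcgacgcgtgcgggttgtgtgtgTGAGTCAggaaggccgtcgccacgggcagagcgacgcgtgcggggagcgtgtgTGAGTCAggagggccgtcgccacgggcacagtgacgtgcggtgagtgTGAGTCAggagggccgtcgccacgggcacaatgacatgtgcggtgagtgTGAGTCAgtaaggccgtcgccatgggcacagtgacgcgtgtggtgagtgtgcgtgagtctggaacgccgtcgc
PHLDB2 site, chr3:111522161-111522460: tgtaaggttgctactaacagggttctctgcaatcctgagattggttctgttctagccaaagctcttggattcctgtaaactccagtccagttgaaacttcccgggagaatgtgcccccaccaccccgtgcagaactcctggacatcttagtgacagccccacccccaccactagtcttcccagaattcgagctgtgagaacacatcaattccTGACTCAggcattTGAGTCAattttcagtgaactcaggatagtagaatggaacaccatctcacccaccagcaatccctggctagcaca
EGFR site, chr7:55035122-55035421: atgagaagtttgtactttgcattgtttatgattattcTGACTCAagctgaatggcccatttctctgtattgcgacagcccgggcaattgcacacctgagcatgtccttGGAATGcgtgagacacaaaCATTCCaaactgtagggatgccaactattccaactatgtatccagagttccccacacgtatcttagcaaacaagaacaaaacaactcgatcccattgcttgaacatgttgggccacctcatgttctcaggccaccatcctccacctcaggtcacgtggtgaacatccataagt
LRATD1 site, chr2:14897236-14897535: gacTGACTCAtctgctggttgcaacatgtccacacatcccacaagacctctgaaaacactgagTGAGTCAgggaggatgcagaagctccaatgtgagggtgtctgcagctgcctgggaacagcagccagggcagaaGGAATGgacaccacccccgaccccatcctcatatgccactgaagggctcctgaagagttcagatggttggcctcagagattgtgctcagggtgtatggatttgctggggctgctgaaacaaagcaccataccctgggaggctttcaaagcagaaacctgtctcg
NR2F1 site, chr5:92414281-92414580: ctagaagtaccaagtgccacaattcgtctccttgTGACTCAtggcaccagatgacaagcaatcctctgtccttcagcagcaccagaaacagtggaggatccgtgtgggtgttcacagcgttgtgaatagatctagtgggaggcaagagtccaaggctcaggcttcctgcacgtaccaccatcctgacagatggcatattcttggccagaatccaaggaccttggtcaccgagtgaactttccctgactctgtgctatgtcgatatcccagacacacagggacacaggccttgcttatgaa
OSR1 site, chr2:19738363-19738662: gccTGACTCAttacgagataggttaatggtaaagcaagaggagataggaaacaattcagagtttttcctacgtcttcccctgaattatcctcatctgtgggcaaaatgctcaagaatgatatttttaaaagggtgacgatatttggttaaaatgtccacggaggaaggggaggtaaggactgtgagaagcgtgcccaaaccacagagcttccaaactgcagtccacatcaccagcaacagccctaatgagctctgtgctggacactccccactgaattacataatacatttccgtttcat
HMGA2 site, chr12:66151003-66151302: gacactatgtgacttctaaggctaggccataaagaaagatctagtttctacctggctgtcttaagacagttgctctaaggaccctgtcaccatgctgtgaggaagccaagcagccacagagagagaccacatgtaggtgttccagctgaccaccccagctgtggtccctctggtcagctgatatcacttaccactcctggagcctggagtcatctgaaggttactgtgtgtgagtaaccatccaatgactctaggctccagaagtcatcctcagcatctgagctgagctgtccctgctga
The TRIP13 window held 4 AP-1 matches, and those of PHLDB2 and LRATD1 held 2 each. The TRIP13 window is a tandem repeat, and its 4 matches lie in successive near-identical copies, so they are not separate occurrences of the motif. The EGFR, NR2F1 and OSR1 windows held 1 AP-1 match each. TEAD matches numbered 2 in the EGFR window and 1 in the LRATD1 window. The HMGA2 window held no match to either motif.

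Most sites open only in PC9 carried H3K4me2 in PC9R too, which is called kept here. Of the 2626, 2231 (85.0%, exact 95% interval 83.5 to 86.3) overlapped an H3K4me2 peak of PC9R and 395 did not. Intervals of shares here and throughout cover counting error only. Among the 1036 distal DHS peaks in PC9 H3K4me2 that were open in both lines, the share was 93.9% (92.3 to 95.3). Among the 5787 distal PC9-only peaks outside PC9 H3K4me2, it was 9.47% (8.73 to 10.3). The PC9-only enhancer-like sites were thus below the shared sites by more than the counting intervals and far above PC9-only peaks that PC9 itself did not mark.

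In the mirror-image class, 4815 distal DHS peaks of PC9R had no overlap in PC9 and lay in PC9R H3K4me2, and 54.2% (52.8 to 55.6) of them overlapped an H3K4me2 peak of PC9. The H3K4me2 lists differ in length and width, which bears on such shares: PC9R had 117861 peaks over 60.3 Mb with a median of 395 bp, against 85246 peaks over 71.4 Mb with a median of 546 bp in PC9. With the PC9R list shortened to its 85246 highest-scored peaks, 80.9% of the PC9-only enhancer-like sites were still in it.

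H3K4me2 was kept least often where PC9 had little of it. By quartile of the PC9 H3K4me2 score, from lowest to highest, 76.6%, 85.2%, 90.3% and 87.8% of the sites were in PC9R H3K4me2. Shared sites within the same score bounds gave 86.3%, 92.0%, 95.2% and 97.3%. The share was lower than that of shared sites in every quartile, and the intervals of the 2 classes did not overlap in quartile 1 or in quartile 4. The score is the authors' own and its scale is not stated, so it only ranks peaks within a list. Its median was 30.1 at sites that kept H3K4me2 and 20.6 at sites that did not.

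The DHS score of a site made no such difference, with 85.5%, 85.2%, 84.0% and 85.1% kept from the lowest to the highest quartile. Sites near genes kept the mark least often: 78.5% (75.2 to 81.6) of those 1011 to 9283 bp from a TSS did, against 88.0%, 85.8% and 87.5% in the quartiles farther out.

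**Figure D1:**
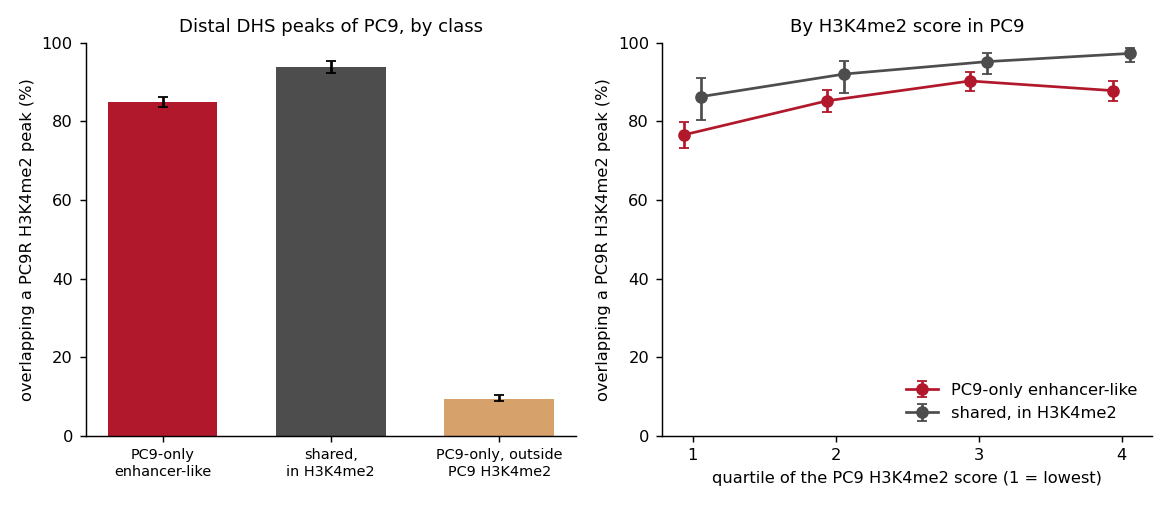
Share of distal DHS peaks of PC9 that overlap an H3K4me2 peak of PC9R, by class on the left and by quartile of the PC9 H3K4me2 score on the right, with exact 95% binomial intervals as error bars. The PC9-only enhancer-like sites reached 85.0%, shared sites 93.9% and PC9-only peaks outside PC9 H3K4me2 9.47%.

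Where the mark was missing in PC9R, it was often close by. The 395 sites without it lay a median of 339 bp from the nearest PC9R H3K4me2 peak, and 237 of them (60%) lay within 500 bp. Only 115 were more than 1 kb away and 17 more than 10 kb. Of the 2231 sites with the mark, 1538 (68.9%) lay wholly inside a PC9R H3K4me2 peak.

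Counted over marked regions rather than sites, 2672 H3K4me2 peaks of PC9 held at least 1 site, and 90.8% (89.6 to 91.8) of them overlapped H3K4me2 in PC9R. Of the 2672, 258 (9.66%) overlapped a DHS peak of PC9R anywhere along their length. Each region was chosen for holding a PC9 DHS peak without PC9R overlap, so a low share was in part built in. Among regions more than 1 kb from a TSS, 90.4% of the 2538 with a site overlapped PC9R H3K4me2, against 95.9% of the 948 with a shared DHS peak and 62.2% of the 58972 with no PC9 DHS peak. These last regions were narrower, with a median of 413 bp against 878 bp for those with a site.

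Sites were ordinary in strength within the PC9 DHS list. Their DHS score had a median of 6.26 (lowest 2.39, highest 55.6), against 7.37 for shared sites and 6.40 for the whole list, and their median width was 199 bp against 232 bp for shared sites. The highest score belonged to a 648 bp site in an intron of TRIP13, a mitotic checkpoint ATPase gene, and the second highest, 39.2, to a 290 bp intronic site of PHLDB2, which encodes a cell-cortex protein. Both kept H3K4me2 in PC9R. An effect of the tandem repeat at the TRIP13 site on its score was not tested. Of the 10 highest-scored sites, 9 kept it. The exception, chr3:149085010-149085285, lay 8214 bp from a TSS of TM4SF1, a membrane protein gene, and 423 bp from the nearest PC9R H3K4me2 peak.

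The criteria cut through a continuous range. At the TSS limit, 18 sites lay up to 100 bp beyond it, the nearest at 1011 bp from a TSS, and 23 PC9-only peaks in H3K4me2 were left out within 100 bp short of it, the farthest at 996 bp. At the limit of overlap with PC9R DHS, 51 sites lay within 100 bp of a PC9R DHS peak without touching it, and 17 peaks were left out that overlapped one by 50 bp or less. At the third limit, 90 sites overlapped PC9 H3K4me2 by 50 bp or less, and 80 PC9-only distal peaks were left out that lay within 50 bp of it. Most sites were clear of PC9R DHS: 54.9% of the sites lay more than 10 kb from any PC9R DHS peak, and 9.79% within 500 bp.

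The sites lay mainly in introns and between genes, at typical enhancer distances. Introns of protein-coding genes held 42.8% (40.9 to 44.7) of them, intergenic sequence 34.1%, non-coding genes 16.8%, coding exons 3.81% and UTRs 2.51%. Of shared sites, 31.6% (28.7 to 34.5) were intronic and 26.3% (23.6 to 29.0) in non-coding genes, both outside the intervals of the PC9-only sites. The distance to the nearest protein-coding TSS had a median of 24886 bp, with quartiles of 9284 and 56455 bp. Between 10 and 50 kb lay 45.1% of the sites, and 13.9% lay beyond 100 kb, where 38.7% of the PC9-only peaks outside H3K4me2 were found.

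**Figure D2:**
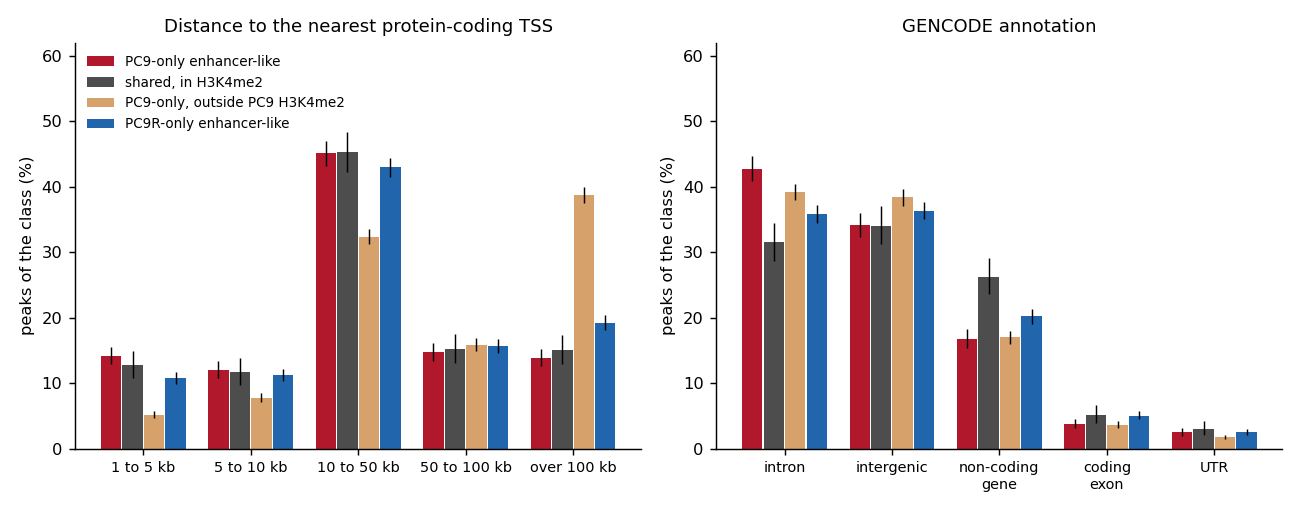
Distance to the nearest protein-coding TSS (left) and GENCODE annotation (right) of the 4 classes of distal DHS peaks, as a share of each class with exact 95% binomial intervals. The PC9-only enhancer-like sites were 42.8% intronic, and 13.9% of them lay over 100 kb from a TSS, where 38.7% of the PC9-only peaks outside PC9 H3K4me2 lay.

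By chromosome, the sites were less concentrated than PC9-only peaks outside H3K4me2. Chromosome 3 held 8.72% of the sites but 21.2% of the PC9-only peaks outside H3K4me2. Chromosome 13 held 66 sites (2.51%), against 7 shared sites (0.676%) and 20 PC9R-only enhancer-like peaks (0.415%). The 6 windows of 5 Mb most crowded with distal PC9 DHS peaks held 3.85% of the sites, 8.59% of shared sites and 18.7% of PC9-only peaks outside H3K4me2. DNA copy number was not measured in these samples.

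Most sites stood alone. With gaps bridged up to the distance customary for stitching enhancers, they formed 2375 groups, of which 2155 were single sites and 220 held 2 or more. The largest groups had 4 sites each. One spanned 15174 bp at IRF2BPL, which encodes a transcriptional cofactor, one 14848 bp at SEC61G, a translocon subunit gene, and one 20227 bp inside EGFR.

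Of the motifs searched, AP-1 differed most from shared sites, in percentage points, in windows of 200 and 400 bp, and the KLF and SP motif did over the whole peak. In windows of 200 bp around the midpoint, TGANTCA occurred in 15.7% (14.4 to 17.2) of the sites, 8.78% (7.13 to 10.7) of shared sites, 8.09% of PC9-only peaks outside H3K4me2, 6.27% (5.60 to 6.99) of PC9R-only enhancer-like peaks and 4.67% of all 79248 DHS peaks of both lists. With windows of 400 bp the shares were 43.9% (42.0 to 45.9), 26.7% (24.1 to 29.5), 15.9%, 14.5% (13.5 to 15.5) and 11.1%, in the same order of classes. Over the whole peak, 18.5% (17.0 to 20.0) of the sites and 13.4% (11.4 to 15.6) of shared sites held a match. A motif match is a string of letters, and whether a factor bound there was not measured.

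The matches lay beside the peaks rather than under their centres, which is why the wider window found so many more. Between 100 and 200 bp from the midpoint the sites held 1.96 AP-1 matches per kb, against 0.925 under 100 bp and 0.359 between 400 and 600 bp. Shared sites had the same shape at a lower level, with 1.14, 0.507 and 0.355 matches per kb. PC9R-only enhancer-like peaks were nearly flat, at 0.480, 0.333 and 0.391. A site of the median width, 199 bp, ends within 100 bp of its midpoint, so the dense zone lay outside it. What sets this distance was not tested.

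**Figure D3:**
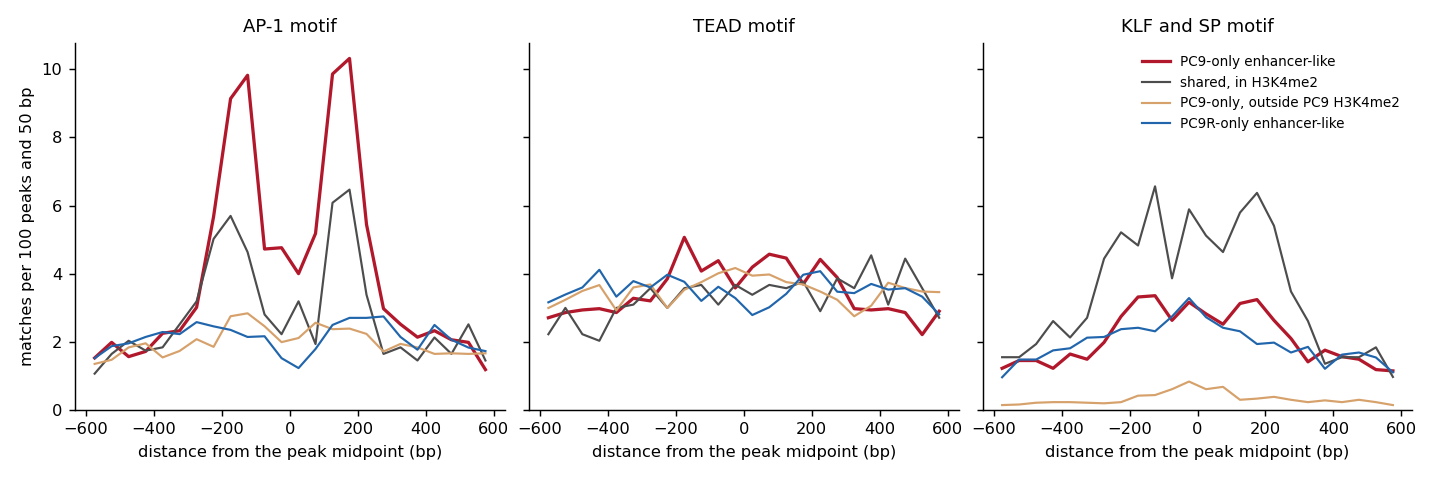
Matches to the AP-1, TEAD and KLF and SP motifs per 100 peaks in 50 bp bins, by distance from the peak midpoint, for the 4 classes of distal DHS peaks. AP-1 matches of the PC9-only enhancer-like sites peak on both sides of the midpoint, at 9.82 per 100 sites at 100 to 150 bp to the left and 10.3 at 150 to 200 bp to the right, with fewer in the bins between.

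At matched base composition the AP-1 difference was clear in 400 bp and less so in 200 bp. Within 400 bp windows of 45 to 55% GC, 49.4% of the sites, 36.7% of shared sites and 17.6% of PC9R-only enhancer-like peaks held a match. Within those of 55 to 65% GC the shares were 39.9%, 25.1% and 13.5%. In 200 bp windows of 45 to 55% GC, 15.3% (13.4 to 17.5) of the sites and 12.6% (8.57 to 17.5) of shared sites held one, with overlapping intervals, and in those of 55 to 65% GC 17.2% (14.9 to 19.6) and 8.32% (6.20 to 10.9) did. Mean GC of the 200 bp windows was 55.5% in the sites, 59.6% in shared sites and 59.3% in PC9R-only peaks. By quartile of the DHS score, 37.6%, 41.8%, 45.1% and 51.3% of the sites held a match in 400 bp, from lowest to highest, against 17.7%, 27.5%, 26.6% and 30.4% of shared sites within the same score bounds. In 200 bp there was no such rise among the sites, at 17.2%, 15.9%, 15.1% and 14.8%, and shared sites were at 5.71%, 8.21%, 7.03% and 11.6%, with overlapping intervals in the highest quartile.

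TEAD matches were only slightly more frequent, at 14.7% (13.3 to 16.1) of the sites in 200 bp, 12.0% (10.1 to 14.1) of shared sites, 10.99% (10.1 to 11.9) of PC9R-only peaks and 9.69% of all DHS peaks. PC9-only peaks outside PC9 H3K4me2 were close to the sites, with 0.796 and 0.830 TEAD matches per kb under 100 bp from the midpoint. Shared sites had 0.690 and PC9R-only peaks 0.632. Against shared sites, the KLF and SP motif GGGCGGG went the other way: 8.38% (7.35 to 9.50) of the sites held it, against 14.2% (12.1 to 16.5) of shared sites and 9.53% of all DHS peaks, and over the whole peak 9.67% (8.57 to 10.9) and 18.1% (15.8 to 20.5) of the sites and shared sites did. This motif is all G and C, shared sites were richer in GC and wider, and it was not compared at matched GC. Under 100 bp from the midpoint the sites held 0.552 matches per kb, PC9R-only enhancer-like peaks 0.558, shared sites 0.965 and PC9-only peaks outside PC9 H3K4me2 0.136. The GATA motif AGATAA occurred in 6.02% (5.14 to 6.995) of the sites and 3.19% (2.20 to 4.44) of shared sites and 3.69% of all DHS peaks. PC9-only peaks outside PC9 H3K4me2 held it at 6.19% (5.58 to 6.84), and in 400 bp at 17.4% against 13.4% of the sites, so GATA did not set the sites apart from these. The CEBP motif TTGCNNAA was found in 8.42% (7.38 to 9.54) of the sites, 6.27% (4.88 to 7.93) of shared sites and 5.19% of all DHS peaks. CTCF, an insulator protein, had a match to its strict motif in 1 of the 2626 sites. For FOX (TGTTTAC, 2.36% of the sites and 1.25% of all DHS peaks), RUNX (TGTGGTT, 4.07% and 3.07%), ETS (ACCGGAA, 0.762% and 1.09%), NKX2 (CACTTGA, 2.51% and 6.09%) and the E-box (CAGCTG, 16.7% and 16.5%), the counting intervals of the sites and of the shared sites overlapped. Both strands were searched, and a palindromic match was counted once.

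H3K4me2 was kept at much the same rate with and without AP-1. Of the 1154 sites with a match in 400 bp, 86.4% (84.3 to 88.3) were in PC9R H3K4me2, and of the 1472 without, 83.8% (81.9 to 85.7).

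RNA was then read at the genes with the nearest TSS. The 4 libraries held 32502455 and 16715426 counts in PC9R and 32515891 and 16013058 in PC9, and each pair is called the first and second library of its line. Of the 6 epithelial markers, KRT7 was the highest at 5339 to 12199 CPM (counts scaled to a common library total) and KRT8 the lowest at 36.9 to 304 CPM. Markers of other cell types were not all near 0: CD68 had 17.3 and 13.6 CPM in PC9R and 8.50 and 8.56 CPM in PC9, CDH5 had 36.2 and 13.4 CPM in PC9R and 15.7 and 8.89 CPM in PC9, and COL1A1 had 64.9 and 13.9 CPM in PC9R and 24.2 and 6.06 CPM in PC9. PECAM1 had 9.81 and 6.54 CPM in PC9R and 5.18 and 3.64 CPM in PC9. PTPRC and CD3E had 0 to 3 counts, VIM 6 to 15 counts and PDGFRB 4 to 32 counts. Of the lung lineage genes, NKX2-1 had 0 or 1 count, SFTPB 0 to 9 counts and SFTPC 0. NAPSA, also of that lineage, had 71 and 12 counts in PC9R and 29 and 6 in PC9. The part of other cell types in the results was not tested. KRT8, CD68, PTPRC, NKX2-1, SFTPB and SFTPC are listed under several RefSeq accessions. Such genes hold few counts here, so their levels may be too low and a value near 0 says little. Whether the first and second library come from separate cultures is not in the labels, and the p-values cover only the spread between them, which may be technical. In bulk RNA, fewer cells expressing a gene and less RNA per cell cannot be told apart.

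The 2626 sites had 1939 different nearest genes, of which 1887 had counts and 1418 passed the filter on low counts. Log2 fold changes are given as PC9R over PC9. A gene was called at a Benjamini-Hochberg adjusted p under 0.05 in edgeR's quasi-likelihood test across all 12314 genes tested. That fit called 39 genes (0.317% of those tested). Among nearest genes it called 4 of 1418, 2 higher, including LRATD1, and 2 lower, NR2F1 and TNC. First and second libraries differed alike in both lines, and a fit with library number in the model called 2736 genes (22.2%), 12.0% of those tested higher and 10.2% lower in PC9R. Its p-values rest on 1 residual degree of freedom and on spread borrowed across genes.

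Genes called without library number lay far from their sites. TNC, which encodes the matrix glycoprotein tenascin C, had 0.173 and 0.480 CPM in the PC9R libraries, against 137 and 217 CPM in the PC9 libraries. Its site lay 255034 bp from the TSS within a non-coding gene and overlapped PC9R H3K4me2 by 129 bp. The lines did not overlap, and edgeR gave a log2 fold change of -9.16 (SE 0.90, adjusted p = 0.0355).

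NR2F1, a nuclear receptor gene, had 0.892 and 1.4998 CPM in PC9R, against 66.4 and 38.0 CPM in PC9, for which edgeR gave a log2 fold change of -5.46 (SE 0.75, adjusted p = 0.0383). Its site ranked 32 of 2626 by DHS score, lay 504378 bp away and was wholly in PC9R H3K4me2. Again every PC9R library was below every PC9 library.

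LRATD1, which encodes a LRAT domain protein, had 21.1 and 5.58 CPM in PC9R and 0 counts in both PC9 libraries. With the libraries of each line pooled, PC9R was at least 250.4-fold higher, from a floor of 3 counts over the PC9 libraries (edgeR adjusted p = 0.0496). That bound leaves out the spread between the PC9R libraries. Its site lay 124445 bp away and kept H3K4me2 in PC9R. The gene was nearest to 13 distal DHS peaks of PC9R, 2 of them PC9R-only and in H3K4me2, and to 8 of PC9.

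**Figure D4:**
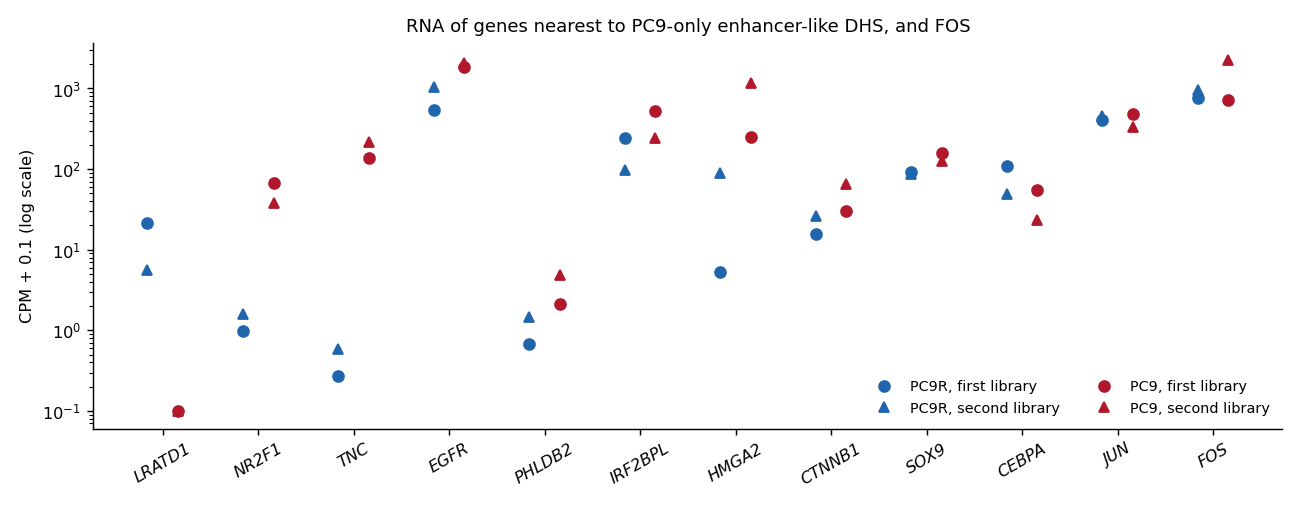
RNA of 11 genes nearest to PC9-only enhancer-like sites and of FOS, in CPM plus 0.1 on a log scale, with 1 point per library. LRATD1 is at 0 in PC9, TNC and NR2F1 are below 2 CPM in PC9R, and the libraries of the lines overlap for CEBPA, JUN and FOS.

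As a group, nearest genes leaned towards lower RNA in PC9R, by little. With library number in the model, 145 of 1418 were called higher (10.2%, against 12.0% of all genes tested) and 206 lower (14.5%, against 10.2%). Their median log2 fold change, from the fit without library number, was -0.066, and that of all genes was -0.00457. The lean rests on which libraries are used: relative to the median of all genes it was -0.014 without the first PC9 library and -0.0063 without the second PC9R library, against -0.19 without the first PC9R library and -0.16 without the second PC9 library.

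The share called lower was larger among genes with more sites, a difference that was not tested. Of the 1052 tested genes nearest to 1 site, 13.0% were called lower and 11.1% higher. Of the 261 nearest to 2 sites, 16.9% were lower and 7.66% higher, and of the 105 nearest to 3 or more, 23.8% were lower and 7.62% higher, with a median log2 fold change of -0.21. Sites without H3K4me2 in PC9R had 276 tested nearest genes with a median of -0.17, 46 lower (16.7%) and 28 higher (10.1%). Sites that kept it had 1262 with a median of -0.064, 188 lower (14.9%) and 124 higher (9.83%), so the shares called were close. Genes can belong to both sets.

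Many genes had sites of both kinds. For 42.0% of the sites the nearest gene was also nearest to an enhancer-like DHS peak found in PC9R only. The 554 tested genes of that sort had a median log2 fold change of -0.000327, with 77 higher and 77 lower. The other 864 had a median of -0.11, with 68 higher and 129 lower. Nearest genes of PC9R-only enhancer-like peaks leaned the other way, with 305 of 1862 called higher, 174 lower and a median of 0.10, and those of shared sites had a median of 0.019. PC9-only peaks outside PC9 H3K4me2 had 1572 tested nearest genes with 10.4% called higher, 16.3% lower and a median of -0.15, so the lean was not particular to sites in H3K4me2.

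**Figure D5:**
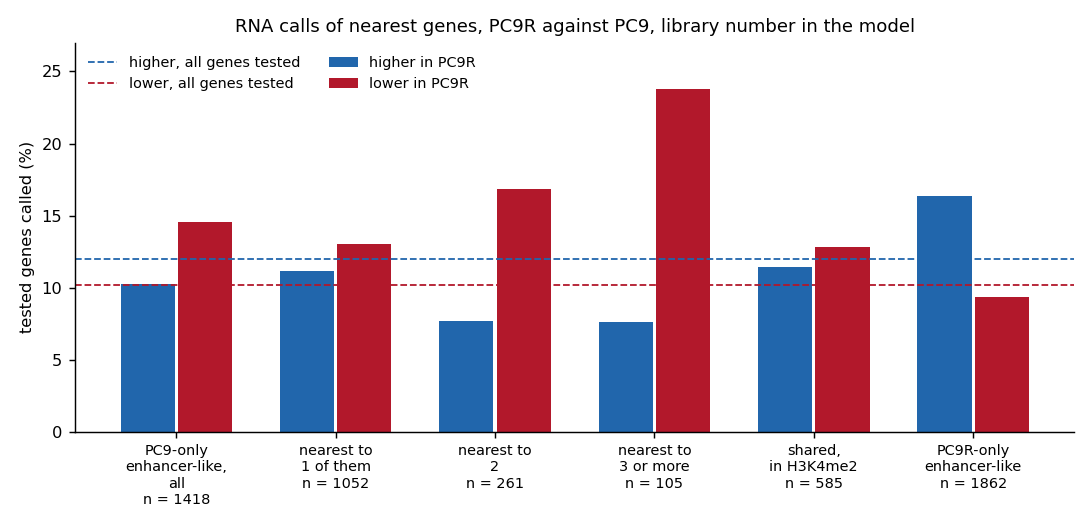
Share of tested nearest genes called higher or lower in PC9R with library number in the model, for PC9-only enhancer-like sites, for genes by their number of such sites, for shared sites and for PC9R-only enhancer-like peaks. Dashed lines are the shares over all genes tested, 12.0% higher and 10.2% lower, and genes nearest to 3 or more sites were at 7.62% and 23.8%.

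EGFR, the receptor that gefitinib inhibits, was second in number of sites, in a region dense in DHS: its 11 sites were 14.9% of the 74 distal PC9 DHS peaks nearest to it, against 21.2% of all 12413 distal PC9 DHS peaks. Of the 11, 10 kept H3K4me2 in PC9R. The 11 ran from 72745 bp upstream of the gene, at chr7:55013783-55013965, through 6 intronic sites to chr7:55323077-55323618 beyond its end. The strongest, chr7:55035125-55035418, ranked 13 of 2626, lay 51292 bp from the TSS and had a PC9R DHS peak 363 bp away. Nearest to the same gene were 95 distal DHS peaks of PC9R, 14 shared sites and 4 PC9R-only enhancer-like peaks. EGFR had 536 and 1031 CPM in PC9R, against 1870 and 2071 CPM in PC9, so the lines did not overlap. The edgeR log2 change was -1.33 ± 0.51 SE (adjusted p = 0.538), and with library number in the model it was -1.40 ± 0.22 SE (adjusted p = 0.00244), being -1.80 within the first libraries and -1.01 within the second. EGFR is counted over 4 accessions, so its levels may be too low in both lines.

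PHLDB2 had the most sites, 12 of its 34 distal PC9 DHS peaks (35.3%), of which 9 kept H3K4me2, all in introns of PHLDB2 or of PHLDB2 and the overlapping PLCXD2. Its RNA was low, at 0.575 and 1.38 CPM in PC9R, against 2.04 and 4.72 CPM in PC9, and called lower with library number in the model (edgeR log2 change -1.79 ± 0.36 SE, adjusted p = 0.00776). It has 4 accessions, so the same holds for it. IRF2BPL had 6 sites, all with H3K4me2 in PC9R, and 241 and 97.8 CPM in PC9R, against 522 and 246 CPM in PC9 (edgeR log2 change -1.22 ± 0.19 SE, adjusted p = 0.00220 with library number). CBLB, a ubiquitin ligase gene that acts on EGFR, had 7 sites among 122 distal PC9 DHS peaks and 129 and 90.0 CPM in PC9R, against 69.1 and 83.4 CPM in PC9, and was not called in either fit. ASAP2, SSPN and CCDC54 also had 7 sites each, among 7, 14 and 112 distal PC9 DHS peaks, and IRF2BP2, TBL1XR1 and ZMIZ1 had 6 each, and none of these was called in either fit, CCDC54 having too few counts to be tested. At IRF2BP2, 1 of the 6 sites kept H3K4me2 in PC9R and 5 did not, whereas at ASAP2, CBLB and CCDC54 6 of 7 kept it. ASAP2, SSPN and IRF2BP2 have 2 accessions each.

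Larger differences were found in both directions. With library number in the model, 116 nearest genes were called with a log2 change of 1 or more in size, lines that did not overlap and 10 CPM or more in the higher line. Of the tested nearest genes, 71 (5.01%) were lower and 45 (3.17%) higher by this rule, against 2.77% lower and 3.22% higher of all genes tested. HMGA2, a chromatin architectural protein gene, had 5.21 and 90.3 CPM in PC9R, against 251 and 1186 CPM in PC9, and 3 sites of which 2 kept H3K4me2. NES (nestin) had 11.02 and 5.04 CPM in PC9R, against 132 and 67.6 CPM in PC9. SIX2, a developmental homeobox gene with 4 sites that all kept H3K4me2, had 3.62 and 2.52 CPM in PC9R, against 37.8 and 27.9 CPM in PC9. Their log2 fold changes were -4.61, -3.66 and -3.42 (SE 0.41, 0.24 and 0.26), with edgeR adjusted p of 0.000125, 2.53e-05 and 5.48e-05. HMGA2 has 2 accessions.

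The other large falls, with log2 fold changes between -3.68 and -2.61, were ITGBL1, SERPIND1, OSR1, CHD5 and CPE, and ITGBL1 has 4 accessions. TRIP13, nearest to the highest-scored site, had 38.1 and 170 CPM in PC9R, against 136 and 244 CPM in PC9, so the lines overlapped (edgeR log2 change -1.18 ± 0.30 SE, adjusted p = 0.0205 with library number, 2 accessions). Among the genes called higher in PC9R, BCAS1, which had 4 sites, had 119 and 12.54 CPM in PC9R, against 0.784 and 0.539 CPM in PC9 (edgeR log2 change 6.50 ± 0.54 SE, adjusted p = 7.58e-05). GLDC, the glycine decarboxylase gene, had 34.9 and 13.7 CPM in PC9R, against 0.784 and 0.808 CPM in PC9 (edgeR log2 change 4.93 ± 0.39 SE, adjusted p = 6.35e-05). SEMA5A, ALPP, FA2H, TSC22D3, TLR5, TNS1 and EMP1 had log2 fold changes between 2.40 and 3.81 in that fit, and TSC22D3 has 3 accessions. In all of these higher genes the PC9R libraries were above the PC9 libraries. Except for ALPP and TSC22D3, they were also nearest to PC9R-only enhancer-like peaks, from 1 at GLDC and FA2H to 6 at EMP1. Some lower genes had such peaks too, with 6 at IRF2BPL, 4 at EGFR, 3 at NR2F1 and 2 at OSR1. HMGA2, NES, ITGBL1, CHD5, CPE and TNC had 0. A link between these peaks and RNA was not tested.

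By pathway, genes of EGFR and MAPK signalling were lower or not called, both near sites and over the whole list. Of the 32 listed genes, 8 were nearest to 23 sites. With library number in the model 3 of the 8 were lower and 0 higher, and over the 28 tested genes of the list 12 were lower and 0 higher. Lower calls were thus no more frequent near sites than in the list. For this and the following lists, the shares over all genes tested were 10.2% lower and 12.0% higher. Besides EGFR the lower genes included the MAPK phosphatase gene DUSP6 (edgeR log2 change -0.88 ± 0.25 SE, adjusted p = 0.0358). TGFA, DUSP4, DUSP5 and ERRFI1 were not called. Without library number 0 of the 8 were called.

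Of 6 Wnt pathway genes near 12 sites, 3 were lower and 0 higher with library number in the model, against 3 lower and 4 higher of the 17 tested genes of the list. DKK1, a secreted Wnt antagonist gene, had 48.0 and 158 CPM in PC9R, against 382 and 672 CPM in PC9 (edgeR log2 change -2.54 ± 0.25 SE, adjusted p = 0.000203). Its 1 site lay 140813 bp away and had no H3K4me2 in PC9R. ZNRF3, a ubiquitin ligase gene that removes Wnt receptors, and CTNNB1, the beta-catenin gene, were lower too (-1.87 and -1.14, edgeR adjusted p = 0.00685 and 0.00799), while WNT7A, WNT7B and LRP5 were not called.

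Adhesion and matrix genes differed in both directions. Of the 12 list genes near 14 sites, 11 were tested. With library number in the model 3 of the 11 were higher, including LAMC1, and 2 lower, ITGA5 and TNC. Of the 19 tested genes of the list 6 were higher and 3 lower. LAMC1, a laminin subunit gene, had 994 and 792 CPM in PC9R, against 468 and 504 CPM in PC9 (edgeR log2 change 0.87 ± 0.19 SE, adjusted p = 0.0117). ITGA5, an integrin gene, had 163 and 107 CPM in PC9R, against 261 and 156 CPM in PC9 (edgeR log2 change -0.61 ± 0.19 SE, adjusted p = 0.0451).

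TGF-beta pathway genes ID3 and INHBA were higher (0.73 and 1.15) and LTBP1 lower (-1.45) with library number in the model. These were the 3 tested near sites, and of the 14 tested genes of the list 4 were higher and 2 lower. The cytokine gene LIF with 4 sites (-1.54) and TNFAIP2 (-0.79), the YAP targets F3 and NT5E (-0.97 and -1.05), the glycolytic gene HK2 (-2.52) and the lineage factor SOX9 (-0.66) were lower with library number in the model. Tested near sites were 2 NF-kB, 6 YAP, 4 hypoxia and glucose and 2 lung lineage genes. The whole lists ran both ways in that fit. Of 15 tested NF-kB genes 3 were higher and 3 lower, and of 11 YAP and TEAD targets 2 and 3. Of 14 hypoxia and glucose genes 2 were higher and 5 lower, and of 6 lung lineage genes 2 and 1. CEBPA, a transcription factor gene, was higher (1.04). No call was made among the tested nearest genes of the lists of bypass receptors and their ligands (4, IGF1R, EPHA2, IGFBP3 and IRS2), cadherins and factors of the epithelial to mesenchymal transition (4), or cell cycle and survival genes (2). The nearest genes MET, INSR and MCL1 were not tested, and IGFBP3 had 0 to 47 counts over 2 accessions. CCND1 was close to a call with library number (edgeR log2 change -0.54 ± 0.17 SE, adjusted p = 0.0509). Over all tested genes of these lists, in the same order, 1 of 7, 3 of 10 and 1 of 12 were higher. Lower were 1, 1 and 0. The libraries of the lines overlapped for ITGA5, ID3, TNFAIP2, F3 and CEBPA, and lay apart for the other list genes named as called. Of these genes, DUSP6, F3, LIF, NT5E and ZNRF3 have 2 accessions each, CTNNB1 has 3 and LTBP1 has 5.

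The genes of AP-1 itself did not differ by a call. Of the 9 listed JUN, FOS and ATF family genes, 8 were tested, 0 were called in either fit, and the median log2 fold change was 0.033. JUN had 408 and 461 CPM in PC9R, against 479 and 331 CPM in PC9, and FOS had 762 and 946 CPM in PC9R, against 729 and 2241 CPM in PC9. JUNB and FOSL1 overlapped between the lines likewise. TEAD1, the most abundant TEAD gene, had 344 and 547 CPM in PC9R, against 266 and 429 CPM in PC9 (edgeR log2 change 0.36 ± 0.18 SE, adjusted p = 0.179 with library number). JUN, JUNB and TEAD1 were each nearest to 2 sites, and PC9R had H3K4me2 at those of JUN and TEAD1 but at neither of JUNB. RNA does not measure phosphorylation, by which AP-1 is controlled.

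Nearest genes of sites with and without an AP-1 match in 400 bp had median log2 fold changes of -0.075 and -0.065, with 14.6% and 14.8% called lower.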

How the data were processed

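Chromatin accessibility, H3K4me2 and RNA of PC9R and PC9 were taken as deposited. Per the submitters' processing notes, reads and peaks were handled on hg19 with TopHat, MACS2, DESeq and HTSeq. No source used here gives versions, roles, peak threshold, control libraries or annotation. RNA was deposited as raw counts for each RefSeq accession, and the deposited peak lists, 1 per library, hold a score per peak whose scale the authors do not state.

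Accessions were summed per gene (41556 of 42811 matched, names from RefSeq). Genes listed under several accessions, 8198 of 23375, held 6.79% to 7.12% of a library's counts, so their levels are likely too low. Peaks were compared with bedtools 2.31.1 (overlap of 1 bp). TSS and annotation came from GENCODE 44 lifted to GRCh37, and sequences from GRCh37. Shares have exact Clopper-Pearson 95% intervals. The RNA test was edgeR 4.0.16 (R 4.3.3), a two-sided quasi-likelihood F test after TMM and filterByExpr, with Benjamini-Hochberg adjustment. CPM are TMM-normalized, and SE is the size of a log2 fold change over the square root of its F. DESeq2 1.42.0, limma 3.58.1, other scalings and filters, library number in the model, leaving out each RNA library, and other definitions of a site, of kept H3K4me2, of the link to a gene and of the motif window were alternatives. Scripts were tested on simulated data.

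First and second libraries share only a number. The second minus first differences correlated at 0.789 between the lines across genes.

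The sites, gene lists and rules were chosen with earlier results of these data known. Named genes were the nearest genes of the 10 highest-scored sites, the 10 genes with most sites, those called without library number, the 10 largest per direction called with it (log2 change of 1 or more in size, lines not overlapping, 10 CPM or more), the list genes with most sites, the most abundant gene of each motif-binding family, and EGFR. List genes near a site that were called with library number are named as well. Some genes these rules name and 1 sequence are not reported here.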

Additional observations from a re-analysis of the deposited data

How the results depend on the processing

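Chromatin results rest on 1 library per line and assay, with no depth in the peak lists. The number of sites stayed within 1.5 times of 2626 under the other definitions except with DHS scores at or above the list median (1264). The share in PC9R H3K4me2 was 86.5% where at least 50% of the site had to lie in PC9 H3K4me2, 87.2% beyond 10 kb from a TSS, 77.2% where at least 50% of the site had to be covered in PC9R, 94.0% where a peak within 500 bp counted, and 80.9% with the PC9R list shortened. Over the whole peak and over 400 bp, AP-1 was at 18.5% and 43.9%, TEAD at 16.8% and 27.8%, KLF and SP at 9.67% and 14.7%, and GATA at 13.4% in 400 bp. By GC content, a choice made after seeing the data, AP-1 was at 23.7% under 45% and 9.54% from 65%.

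The RNA calls depend on the fit. With library number as a replicate block, 2736 genes and 351 nearest genes were called, against 39 and 4. Without the filter 432 and 45 were called, by DESeq2 371 and 44, and by limma-voom 75 genes. With upper quartile scaling edgeR called 0 and 0, with 892 and 108 at an unadjusted p under 0.05. Leaving out 1 library gave 82 to 249 genes and 7 to 22 nearest genes. The cause was not tested. TNC, NR2F1 and LRATD1 lost their calls with upper quartile scaling (edgeR adjusted p = 0.0625, 0.0674 and 0.0912), and LRATD1 also with a filter of 1 CPM (0.0530).

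Of nearest genes, 0 were called for sites within 100 kb, 0 for sites without H3K4me2 in PC9R, 1 among genes near no PC9R-only site and 1 among all genes within 100 kb. With library number, 315 of 1296 tested nearest genes were called for sites within 100 kb and 74 of 276 for sites without H3K4me2. Near no PC9R-only site, 197 of 864 were called. Among all genes within 100 kb 723 were called, and for scores at or above the median 195. The counts depend on set size, and 22.2% of all genes tested were called in that fit. In the sets with sizes given, 10.3%, 10.1% and 7.87% were higher and 14.0%, 16.7% and 14.9% lower. Of all genes tested, 12.0% were higher and 10.2% lower. The median log2 fold change was -0.11 beyond 10 kb, -0.17 for sites without H3K4me2, -0.11 near no PC9R-only site, -0.027 with upper quartile scaling, and between -0.28 and 0.098 with 1 library left out, its sign turning without the first PC9 library (0.098), where the median of all genes was 0.11. Among named genes, leaving out 1 library moved F3 between -2.15 and 0.10 (positive without the second PC9 library), ID3 between -0.062 and 1.41 (negative without the first PC9R library) and TNFAIP2 between -1.65 and 0.073 (positive without the first PC9 library). None of these was called there.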

Other observations

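Genes for the enzymes that write and erase H3K4 methylation are a further group of interest at sites that kept the mark. Of the 10 tested H3K4 methyltransferase complex genes, 1 was called with library number in the model, KDM6A, higher in PC9R (edgeR log2 change 0.83 ± 0.21 SE, adjusted p = 0.0205), which is itself a demethylase of H3K27 within the KMT2 complexes. Of the 4 tested H3K4 demethylase genes, 2 were lower. KDM1A, which removes H3K4me2, had 3.54 and 3.30 CPM in PC9R, against 17.5 and 13.9 CPM in PC9 (edgeR log2 change -2.20 ± 0.27 SE, adjusted p = 0.000657), and has 2 accessions. KDM1B had a log2 change of -0.68 (edgeR adjusted p = 0.0427), and its libraries overlapped between the lines. Without library number 0 of these were called in edgeR.

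Sites that lost H3K4me2 differed in a few sequence features. In windows of 400 bp, the NKX2 motif CACTTGA occurred in 9.62% (6.90 to 13.0) of sites without H3K4me2 in PC9R and 4.98% (4.11 to 5.96) of sites with it, RUNX in 12.9% (9.77 to 16.6) and 8.38% (7.26 to 9.61), and AP-1 in 39.7% (34.9 to 44.8) and 44.7% (42.6 to 46.8). The intervals were separate for NKX2 and RUNX and overlapped for AP-1. In 200 bp NKX2 stayed separate, at 5.32% (3.32 to 8.01) and 2.02% (1.47 to 2.69), while RUNX overlapped, at 5.82% (3.73 to 8.61) and 3.77% (3.01 to 4.64), as it did over the whole peak, at 5.32% (3.32 to 8.01) and 4.62% (3.78 to 5.57). In 200 bp, the NKX2 share of all DHS peaks, given above, exceeded both values and lay inside the interval of sites without H3K4me2. These comparisons were chosen after the values were seen.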
